A study of Homo sapiens with 6 samples.

Results

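The genes for platelet-derived growth factors (PDGFs) and their receptors were followed through 3 stages of WA09 cells, a human embryonic stem cell line in wide use. The 7 genes were the receptor genes PDGFRA and PDGFRB, the receptor-like gene PDGFRL and the ligand genes PDGFA, PDGFB, PDGFC and PDGFD, out of 18417 genes measured. Each was read from the probe set that carried its symbol alone, and each had exactly 1 such probe set. Total RNA of each sample was hybridised to 1 Affymetrix expression array, and there were 6 arrays. The stages were undifferentiated WA09 cells kept in StemPro defined medium (hESC, 2 arrays), ISL1-positive nascent mesoderm cells made by 4 days of Wnt3a (25 ng/ml) plus BMP4 (50 ng/ml) in defined medium (INM, 2 arrays), and smooth muscle cells made by 21 days of the same factors (SMC, 2 arrays). All 3 stages come from this line alone. Whether the replicates were separate cultures is not stated, so each p-value reflects the spread of these particular samples, which could be technical.

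PDGFs are disulphide-linked dimers that bind a pair of receptor tyrosine kinases, PDGFRα and PDGFRβ, and make them dimerise and phosphorylate each other. PDGF-A and PDGF-B are cut inside the cell by proprotein convertases such as furin, whereas PDGF-C and PDGF-D are secreted with a CUB domain that extracellular proteases remove. PDGFRα is best known from mesenchymal progenitors and from ligand made by neighbouring epithelium, and PDGFRβ from pericytes and vascular smooth muscle cells recruited by endothelial PDGF-B.

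Signal is given as deposited, on the log2 scale of RMA (robust multi-array average), and changes are differences of group means on that scale with their standard error (SE). Calls were made where the adjusted p from limma was under 0.05, with the model fitted to all 6 arrays and adjusted by Benjamini-Hochberg over the 18417 genes. The 42 member values ran from 5.64 to 10.71, and 42 of 42 lay above the median of the unnamed probe sets on their own array. That limit is low and does not by itself show expression. The median of all probe sets ran from 6.46 to 6.68 over the arrays. Values lay below it on both arrays for PDGFRA, PDGFB and PDGFC in hESC, PDGFRL in INM, and PDGFB and PDGFD in SMC. The INM pair was the least alike, with a pooled replicate SD over all genes of 0.313, against 0.149 in hESC and 0.132 in SMC. The stage markers moved with the labels: all 7 stem cell markers were called lower in SMC than in hESC, all 7 mesoderm markers were called higher in INM than in hESC, and 7 of 8 smooth muscle markers were called higher in SMC than in hESC. The exception was MYH11, the smooth muscle myosin heavy chain, at 5.59 and 5.43 in SMC against 5.77 and 5.51 in hESC, so a defining marker of mature smooth muscle was not raised in the cells labelled SMC. With any 1 array left out, 4 of those 7 smooth muscle calls and 5 of the 7 mesoderm calls held, and those of TAGLN, SMTN and CALD1 were lost without any hESC or SMC array. The marker lists were chosen with earlier results of these data known, and ISL1, which names the INM stage, is a mesoderm marker. The marker changes therefore describe the stages and do not test their identity. In bulk RNA, more cells of a type and more RNA per cell cannot be told apart.

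The sequences just before the start sites of the receptor genes are shown because PDGFRA and PDGFRB were both higher at each later stage. RefSeq (GRCh38.p14) lists 2 starts for PDGFRA and 1 for PDGFRB in the table used here, and the 250 bases before each are given in the direction of transcription. Capitals mark a GC box (GGGCGG, on either strand), a CCAAT box on either strand, and CCAATCAG, which contains the CCAAT box and was chosen after the windows were read. The windows lie at chr4:54229043-54229292 on the plus strand (PDGFRA, upstream start), chr4:54233710-54233959 on the plus strand (PDGFRA, downstream start) and chr5:150155846-150156095 on the minus strand (PDGFRB).
PDGFRA upstream start: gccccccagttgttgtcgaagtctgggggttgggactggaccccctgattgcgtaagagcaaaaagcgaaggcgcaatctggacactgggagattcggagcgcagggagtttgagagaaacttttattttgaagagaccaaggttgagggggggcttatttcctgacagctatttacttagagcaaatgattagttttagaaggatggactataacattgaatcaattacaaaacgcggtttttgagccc
PDGFRA downstream start: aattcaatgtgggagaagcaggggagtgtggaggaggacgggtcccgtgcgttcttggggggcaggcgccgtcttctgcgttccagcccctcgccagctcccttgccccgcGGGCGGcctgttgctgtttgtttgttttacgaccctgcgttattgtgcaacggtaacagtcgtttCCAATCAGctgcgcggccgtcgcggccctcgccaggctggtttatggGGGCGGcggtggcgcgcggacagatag
PDGFRB: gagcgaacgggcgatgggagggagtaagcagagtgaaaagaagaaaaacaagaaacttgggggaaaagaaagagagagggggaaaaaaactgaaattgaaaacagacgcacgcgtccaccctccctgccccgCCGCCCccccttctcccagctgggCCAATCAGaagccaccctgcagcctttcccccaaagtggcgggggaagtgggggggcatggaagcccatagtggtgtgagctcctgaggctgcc

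CCAATCAG stood 74 bases before the downstream PDGFRA start and 94 bases before the PDGFRB start, on the same strand as the gene in both. It was found, on either strand, in 3.81% of the 35116 windows of the same length in the reference, while CCAAT was found in 32.0% and GGGCGG in 42.6%. The downstream PDGFRA window held 2 GC boxes, at 139 and 27 bases before the start, and the PDGFRB window held 1, at 118 bases on the opposite strand. The upstream PDGFRA window held none of these letters. The letters TATAAA, found in 10.7% of windows, were in none of the 3. Every PDGFA window and the PDGFD window also held a GC box, and none of them held CCAATCAG. Since CCAATCAG was chosen after the receptor windows were read, its share of all windows does not measure how unlikely the match was. The arrays do not say which PDGFRA start was used, and a match of letters is a description only.

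Both receptor genes rose at each step. PDGFRB, the receptor of pericytes and vascular smooth muscle, read 7.37 and 7.49 on the hESC arrays, 9.99 and 9.79 on the INM arrays and 10.48 and 10.71 on the SMC arrays. The 3 stages did not overlap, and the levels ordered as hESC, INM, SMC with narrow pairs. PDGFRB was 5.49-fold higher in INM than in hESC (2.46 on the log2 scale, SE 0.14, adjusted p = 0.000112). It rose again by 0.71 (SE 0.14, adjusted p = 0.0145) in SMC over INM, and stood 8.98-fold above hESC in SMC, at 3.17 (SE 0.14, adjusted p = 2.81e-05). The call of the second step ended without SMC replicate 1 (adjusted p = 0.0576) or SMC replicate 2 (adjusted p = 0.122), whereas the other 2 PDGFRB calls held with any 1 array left out.

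PDGFRA, the receptor that binds PDGF-A, PDGF-B and PDGF-C chains, read 6.61 and 6.38 on the hESC arrays, 7.64 and 9.10 on the INM arrays and 10.06 and 10.10 on the SMC arrays. Its stages did not overlap either, but INM replicate 1 minus replicate 2 was -1.46, a gap at least as large as that of 98.5% of all genes. PDGFRA was 3.67-fold higher in INM than in hESC (1.87, SE 0.42, adjusted p = 0.0163) and 3.26-fold higher in SMC than in INM (1.71, SE 0.42, adjusted p = 0.0335). Over the whole course it was 12.0-fold higher in SMC than in hESC, at 3.58 (SE 0.42, adjusted p = 0.00103), a larger absolute change than in 99.1% of genes by rank. The rise in SMC over hESC was called with any 1 array left out, but the single steps were not. The INM call over hESC ended without hESC replicate 1 (adjusted p = 0.0811) or hESC replicate 2 (adjusted p = 0.0975). The SMC call over INM ended without either hESC array (adjusted p = 0.0796 each) or either SMC array (adjusted p = 0.157 and 0.169), and its adjusted p was 0.0502 over all probe sets, 0.0542 with a trended robust prior and 0.0796 on the 4 SMC and INM arrays alone. With 1 array left out, the rise in INM over hESC ran from 1.14 without INM replicate 2 to 2.61 without INM replicate 1, and that in SMC over INM from 0.97 without INM replicate 1 to 2.44 without INM replicate 2.

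The day 4 values of both receptors were set against their full course. The mean INM signal of PDGFRB had covered 77.6% of its log2 distance between hESC and SMC, with 80.6% for INM replicate 1 and 74.5% for INM replicate 2. PDGFRA had covered 52.4%, with 31.9% and 72.8% for the same arrays. The INM replicate 2 value of PDGFRA lay close to both PDGFRB values and that of INM replicate 1 far below them. A difference in timing was not tested.

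PDGFRL, a secreted protein with immunoglobulin-like domains related to the ligand-binding part of the receptors and with no kinase, had a different course. It read 6.64 and 7.04 on the hESC arrays, 5.64 and 5.68 on the INM arrays and 7.30 and 7.21 on the SMC arrays. INM was the lowest stage with no overlap, and its pair was tight. PDGFRL fell by 1.18 (SE 0.15, adjusted p = 0.00217) in INM relative to hESC and rose by 1.59 (SE 0.15, adjusted p = 0.00114) in SMC relative to INM, and both calls held with any 1 array left out. SMC exceeded hESC by 0.42 (SE 0.15, 95% interval 0.05 to 0.79), which was not called (adjusted p = 0.0760), although the value was called on the 4 SMC and hESC arrays alone (adjusted p = 0.0441), with array weights (adjusted p = 0.0336) and under both other scalings of the arrays. The value rested on single hESC arrays, at 0.22 without hESC replicate 1 and 0.62 without hESC replicate 2, and the first was not called.

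**Figure D1:**
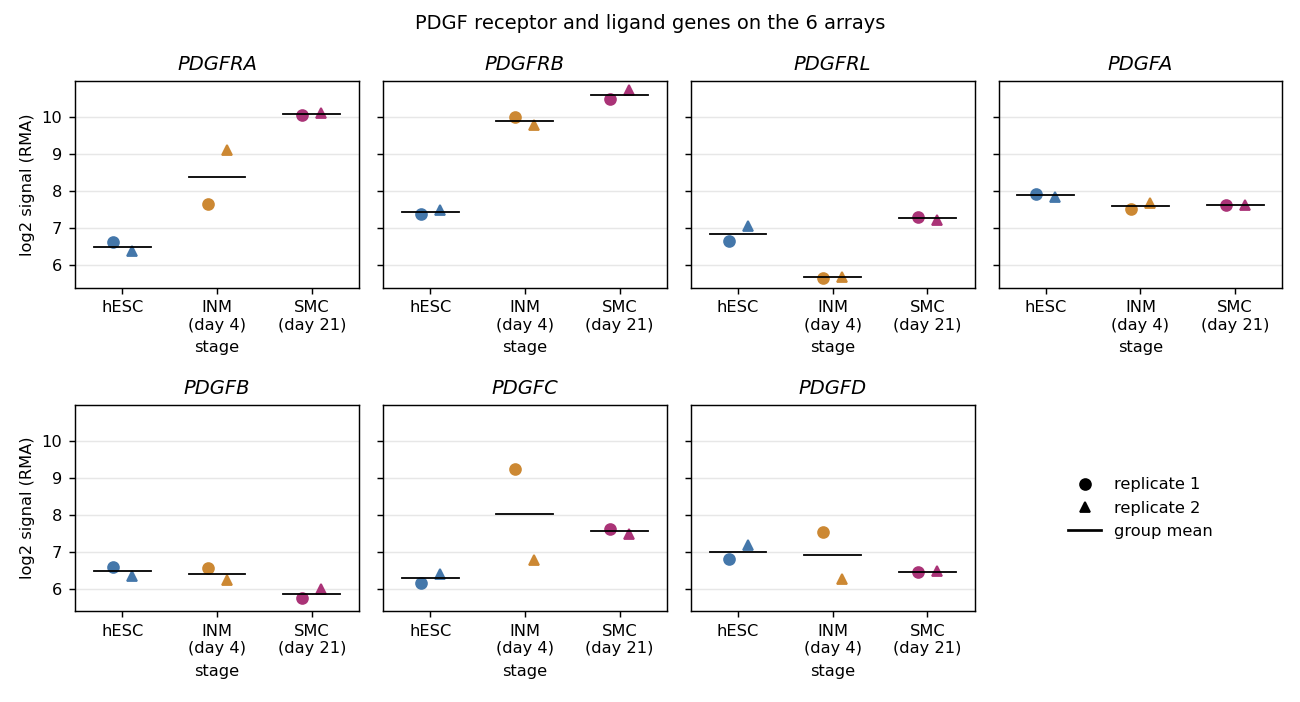
Log2 signal (vertical axis) of the 7 PDGF genes on the 6 arrays, by stage (horizontal axis: hESC, INM, SMC), with circles for replicate 1, triangles for replicate 2 and a line for the group mean. PDGFRA and PDGFRB climb to above 10 in SMC, PDGFRL dips to below 6 in INM, and the INM arrays lie far apart for PDGFRA, PDGFC and PDGFD.

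Among the 4 ligand genes the fit over all 6 arrays made 1 call, that of PDGFB in SMC against hESC. PDGFB, the ligand chain that binds both receptors and that endothelium and platelets are known for, read 6.58 and 6.35 on the hESC arrays, 6.55 and 6.23 on the INM arrays and 5.75 and 5.98 on the SMC arrays. The hESC and INM arrays overlapped and both SMC arrays lay below them. PDGFB was 1.52-fold lower in SMC than in hESC (-0.60, SE 0.17, adjusted p = 0.0292). This call was fragile: it ended without either hESC array (adjusted p = 0.166 and 0.0645) or either SMC array (adjusted p = 0.176 and 0.0717). Median centring gave -0.47 (adjusted p = 0.0577) and quantile normalization -0.45 (adjusted p = 0.0629). The change of SMC against INM, -0.53 (SE 0.17, adjusted p = 0.0675), was not called, but was called after median centring (-0.58, adjusted p = 0.0433) and quantile normalization (-0.59, adjusted p = 0.0408).

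PDGFA, the chain that binds PDGFRα alone as a homodimer, read 7.92 and 7.84 on the hESC arrays, 7.52 and 7.67 on the INM arrays and 7.61 and 7.61 on the SMC arrays. It varied least of the 7 genes over the arrays, and neither derivative was called different from hESC. The change was -0.29 (SE 0.11, 95% interval -0.56 to -0.01, adjusted p = 0.0989) in INM and -0.27 (SE 0.11, 95% interval -0.55 to 0.003, adjusted p = 0.110) in SMC relative to hESC. With array weights the SMC change was called (adjusted p = 0.0469), and without INM replicate 2 the INM change was called at -0.36 (adjusted p = 0.0474).

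PDGFC, whose secreted chain is activated by tissue plasminogen activator, read 6.15 and 6.41 on the hESC arrays, 9.24 and 6.78 on the INM arrays and 7.61 and 7.48 on the SMC arrays. The INM replicates stood 2.46 apart, a gap at least as large as that of 99.7% of genes, and they lay on either side of both SMC arrays. The mean change of 1.73 in INM over hESC (SE 0.69, adjusted p = 0.0995) was not called over 6 arrays. It was called without INM replicate 1, at 0.51 (adjusted p = 0.032), and without INM replicate 2, at 2.96 (adjusted p = 8.07e-06), but a fit with 1 INM array takes its spread from hESC and SMC alone and holds nothing of the INM gap. Both INM arrays read above both hESC arrays. SMC against INM was -0.47 (SE 0.69, adjusted p = 0.686), and the direction turned with the array used: 0.76 (adjusted p = 0.00705) without INM replicate 1 and -1.70 (adjusted p = 0.000190) without INM replicate 2. SMC exceeded hESC by 1.27 (SE 0.69, adjusted p = 0.199) in the fit over 6 arrays, whose shared spread takes in the INM gap. On the 4 SMC and hESC arrays alone the same 1.27 was called (adjusted p = 0.000103).

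PDGFD, the ligand of PDGFRβ that plasmin-system proteases activate, read 6.80 and 7.19 on the hESC arrays, 7.53 and 6.27 on the INM arrays and 6.45 and 6.47 on the SMC arrays. The INM arrays stood 1.25 apart and enclosed all the other arrays. No comparison was called over 6 arrays: the changes were -0.09 (SE 0.38, adjusted p = 0.867) for INM against hESC, -0.44 (SE 0.38, adjusted p = 0.465) for SMC against INM and -0.53 (SE 0.38, adjusted p = 0.314) for SMC against hESC. With 1 INM array, and so with the spread of hESC and SMC alone, INM against hESC was -0.72 (adjusted p = 0.0132) without INM replicate 1 and 0.53 (adjusted p = 0.0417) without INM replicate 2. SMC against hESC was called at -0.53 (adjusted p = 0.0155) on those 4 arrays alone, where the SMC pair was tight and hESC had an SD of 0.28.

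**Figure D2:**
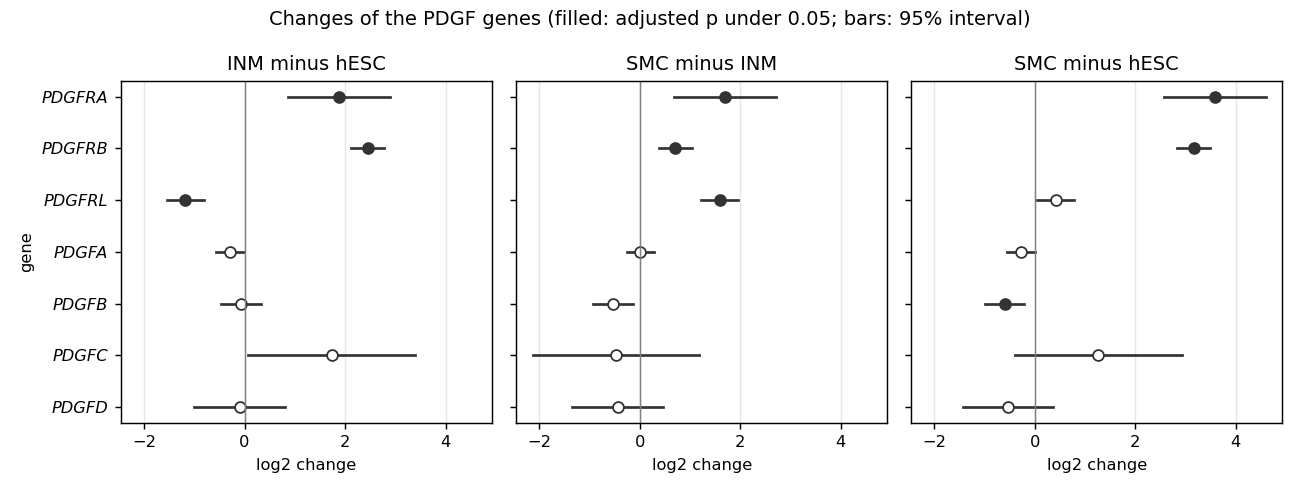
Log2 change (horizontal axis) of each PDGF gene (vertical axis) in 3 comparisons, as points with 95% intervals from the fit over 6 arrays; filled points were called at an adjusted p under 0.05. PDGFRA and PDGFRB lie to the right of 0 in every panel, and the widest intervals belong to PDGFC.

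Counted over the 7 genes, 2 were called higher (PDGFRA and PDGFRB) and 1 lower (PDGFRL) in INM than in hESC, where 18.9% and 14.8% of all genes were called. In SMC against INM, 3 were called higher (PDGFRA, PDGFRB and PDGFRL), where the background was 9.94%, and limma called 0 lower, where it was 11.1%. At an unadjusted p under 0.05, 1 gene, PDGFB, was lower in that step. In SMC against hESC, 2 were called higher (PDGFRA and PDGFRB) and 1 lower (PDGFB), against 19.7% and 17.6% of all genes. The moderated F test over the 3 stages called 4 of the 7 genes, which were PDGFRA, PDGFRB, PDGFRL and PDGFB, where it called 45.5% of all genes. The counts moved with single arrays: the 2 rises in INM over hESC became 1 without hESC replicate 1 or 2 and 4 without INM replicate 2, and the 3 rises in SMC over INM became 1 without SMC replicate 1 or 2. The 2 rises in SMC over hESC became 4 without INM replicate 1 or 2, and the 1 fall became 0 without any hESC or SMC array and 2 without INM replicate 1 or 2. Without overlap between arrays, 3 of the 7 genes were higher in INM than in hESC and 2 lower, beside 33.3% and 34.9% of all genes. For SMC against INM 3 were higher and 1 lower without overlap, beside 29.4% and 32.6%. Arrays of SMC and hESC did not overlap in any of the 7 genes, with 4 higher and 3 lower, where 35% and 40.3% of all genes did the same. The median change over the 7 genes was -0.07 in INM against hESC, 0.02 in SMC against INM and 0.42 in SMC against hESC, beside medians over all genes of -0.03, -0.02 and -0.05. Over all genes, 3486 were called higher and 2731 lower in INM than in hESC, but 5097 and 1589 after median centring and 4111 and 2109 after quantile normalization. For SMC against hESC the split was 3625 higher and 3234 lower, and 4562 and 2303 after median centring. The 3 comparisons share arrays and are not independent.

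The gap within INM ran in opposite directions for members of the family. INM replicate 2 was the higher for PDGFRA, and INM replicate 1 the higher for PDGFC and PDGFD. The remaining members had INM gaps of 0.32 or less in size. Among the cell type markers, 6 of the 7 mesoderm markers read higher on INM replicate 2, and their median difference of replicate 1 minus replicate 2 was -0.54. INM replicate 1 was the higher in 5 of 8 smooth muscle markers (median 0.49) and 5 of 8 fibroblast and matrix markers (median 0.66). Mean marker signal on INM replicates 1 and 2 was 9.80 and 10.40 for mesoderm, 7.38 and 7.76 for stem cell, 9.06 and 8.65 for smooth muscle, 9.12 and 8.71 for fibroblast and matrix genes, and 5.53 and 4.91 for trophoblast genes. INM replicate 1 was the higher in 5 of 7 trophoblast markers, with a median difference of only 0.18. The hormone subunit gene CGA, named after its values were seen, read 7.75 on INM replicate 1 and 5.12 on INM replicate 2. GCM1 read 5.68 and 4.67, in the same direction as CGA, PDGFC and PDGFD. PSG1 (3.89 and 4.00) and PAGE4 (4.36 and 4.46) read higher on replicate 2. The part of these markers in the PDGFRA, PDGFC and PDGFD gaps was not tested.

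**Figure D3:**
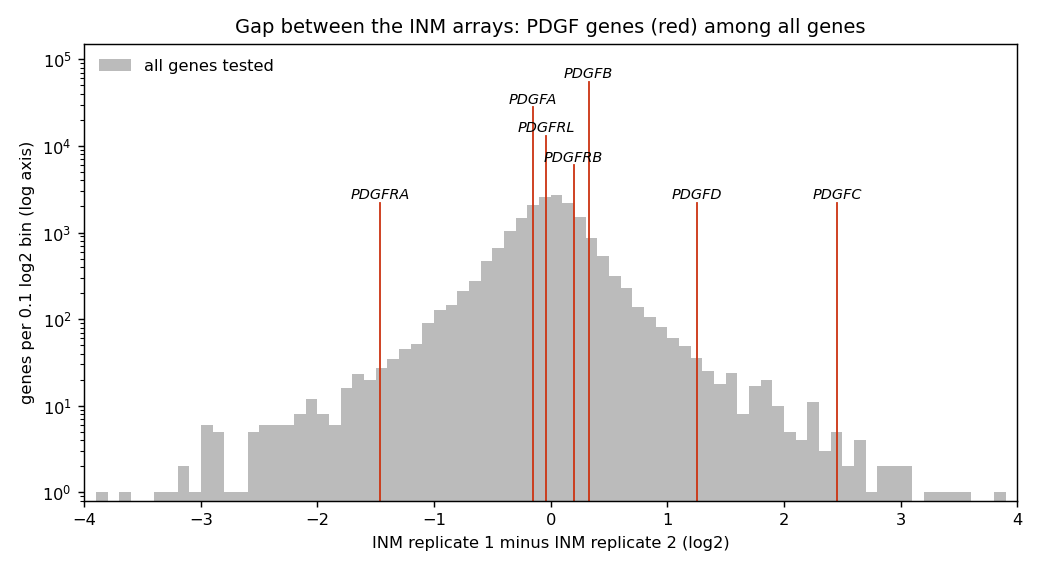
Number of genes per bin of 0.1 log2 (vertical log axis) against INM replicate 1 minus INM replicate 2 (horizontal axis, log2), with red lines at the 7 PDGF genes. PDGFC at 2.46 and PDGFD at 1.25 lie in the right tail and PDGFRA at -1.46 in the left tail.

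The genes with the nearest pattern were sought by the root mean square (RMS) difference over the 6 arrays, each gene centred on its own mean. For PDGFRA these were FREM1 and SLIT2 (RMS 0.235 each) and the mesoderm and heart transcription factor gene GATA4 (RMS 0.240), against an RMS of 1.52 of PDGFRA about its own mean. All 3 shared the INM split: GATA4 read 7.51 and 7.51 on the hESC arrays, 8.74 and 10.34 on the INM arrays and 10.67 and 10.73 on the SMC arrays. For PDGFRB they were FAM114A1 (RMS 0.105), the fibronectin receptor subunit gene ITGA5 (RMS 0.123) and CERCAM (RMS 0.124), against 1.36 about its own mean. ITGA5 read 8.55 and 8.56 on the hESC arrays, 11.23 and 10.95 on the INM arrays and 11.48 and 11.59 on the SMC arrays. For PDGFC the nearest was ADGRL4, an adhesion receptor gene known from endothelium, with an RMS of 0.094 against 1.02. It read 5.89 and 5.91 on the hESC arrays, 8.79 and 6.26 on the INM arrays and 7.23 and 7.15 on the SMC arrays. The ubiquitin ligase gene SMURF2 (RMS 0.243) and the collagen receptor subunit gene ITGA2 (RMS 0.259) followed. For PDGFD they were CABLES1, HSPA2 and PLPP1 (RMS 0.123 to 0.146), and for PDGFRL STAMBPL1, NABP2 and BMERB1 (RMS 0.129 to 0.167). PDGFB (nearest DNAH17, LPAR2 and MIR181C) and PDGFA (nearest CD22, CYP17A1 and SPPL2C) varied so little, with an RMS of 0.300 and 0.141 about their own means, that near neighbours say little. These are likenesses over 6 arrays in 3 stages, given as a description.

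**Figure D4:**
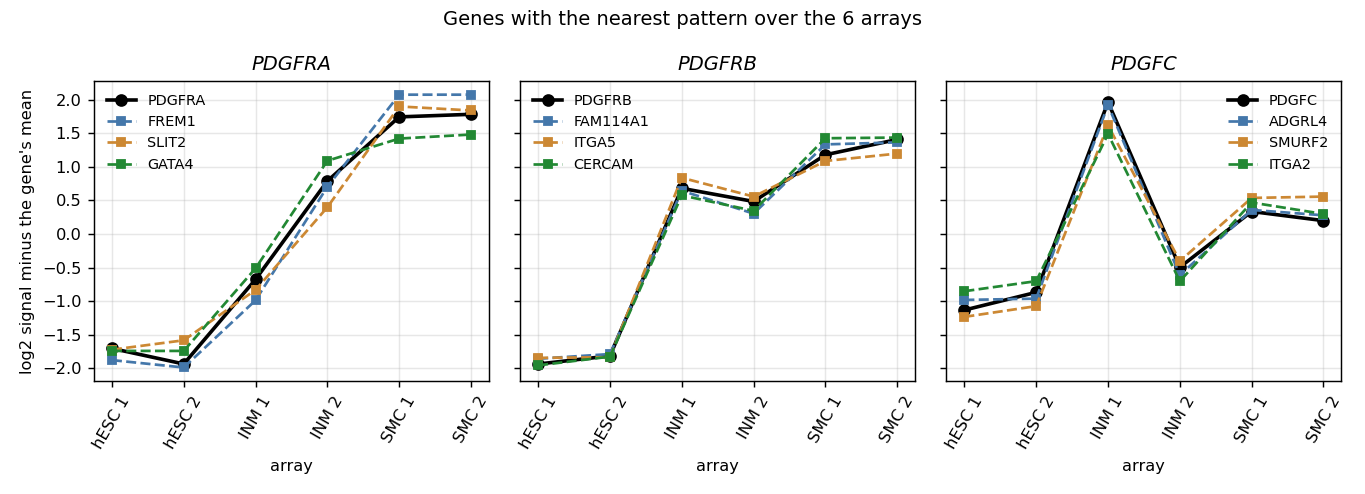
Log2 signal minus the gene's own mean (vertical axis) on the 6 arrays (horizontal axis) for PDGFRA, PDGFRB and PDGFC (black) and the 3 genes nearest to each; lines join arrays only to guide the eye. PDGFRA and its neighbours are higher on INM replicate 2 than on INM replicate 1, whereas PDGFC and its neighbours peak on INM replicate 1.

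Among the proteases that mature PDGF chains, 3 of 7 measured genes were called higher and 1 lower in INM than in hESC, with a list median of 0.23. Of all genes, 18.9% were called higher and 14.8% lower in that comparison, 9.94% and 11.1% in SMC against INM, and 19.7% and 17.6% in SMC against hESC. All list counts stand beside these shares, and 1 gene of 7 or 8 in a direction is close to them. PLAT, tissue plasminogen activator and the known activator of PDGF-C, read 12.12 and 10.90 in INM against 7.74 and 7.70 in hESC, a rise of 3.79 (SE 0.36, adjusted p = 0.000644). Like PDGFC it was higher on INM replicate 1. FURIN, a proprotein convertase that cuts PDGF-A and PDGF-B, read 9.92 and 9.89 in INM against 7.89 and 7.67 in hESC, a rise of 2.12 (SE 0.12, adjusted p = 0.000124). The convertase gene PCSK6 rose by 0.69 (SE 0.13, adjusted p = 0.00877), a call lost without hESC replicate 2. ST14, matriptase, an epithelial protease that can process PDGF-D, fell by 1.71 (SE 0.15, adjusted p = 0.000535).

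PLAU, urokinase and an activator of PDGF-D, was not called in any comparison, at 0.23 (SE 0.30) in INM and 0.48 (SE 0.30) in SMC relative to hESC. In SMC against hESC 3 of 7 were called higher (PLAT at 3.47, FURIN at 1.66 and PCSK6 at 0.83) and 2 lower (ST14 at -2.23 and PCSK5 at -1.05), with a list median of 0.48. Between SMC and INM 0 were called higher and 2 lower in SMC, PCSK5 at -1.0 and FURIN at -0.46, with a median of -0.33. Both falls of PCSK5 and that of FURIN were lost when any hESC or SMC array was left out. Without INM replicate 2, 5 of 7 proteases were called higher in INM than in hESC.

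All 7 measured genes for proteins that bind PDGF outside the cell or stand beside its receptors were called higher in SMC than in hESC. The list median was 1.72. THBS1, thrombospondin, read 12.69 and 12.77 in SMC against 8.99 and 9.21 in hESC (3.63, SE 0.30, adjusted p = 0.000236). The co-receptor gene NRP1 rose by 3.49 (SE 0.39, adjusted p = 0.000857), SPARC, a matrix protein that binds PDGF-B, by 1.57 (SE 0.14, adjusted p = 0.000305) and LRP1, a lipoprotein receptor that associates with PDGFRβ, by 1.19 (SE 0.14, adjusted p = 0.00103). The rises of A2M, a plasma protease inhibitor that carries PDGF (3.60, SE 1.0, adjusted p = 0.0302), and of CSPG4, the pericyte proteoglycan NG2 (1.72, SE 0.41, adjusted p = 0.0168), were lost when any hESC or SMC array was left out. A2M read 9.15 and 5.59 in INM, a split of the same direction as that of PDGFC. Of the 7 genes 6 read higher on INM replicate 1, whereas NRP1, at 8.90 and 10.22, read higher on INM replicate 2.

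In INM against hESC 5 of these 7 genes were called higher and 0 lower (median 1.62), led by NRP1 at 3.21, THBS1 at 2.91 and CSPG4 at 2.23. SPARC at 0.92 and LRP1 at 0.50 completed the 5. The count was 3 in the lowest fit with 1 array left out, 4 without INM replicate 1 and 7 without INM replicate 2. Without hESC replicate 1 or 2 the calls of CSPG4 and LRP1 were lost. That of LRP1 was also lost without INM replicate 1 or either SMC array. SMC exceeded INM in 3 called genes, LRP1 at 0.69, SPARC at 0.64 and HSPG2 at 0.51, and 0 lower (median 0.64), and 0 of these 3 calls held in all 6 fits with 1 array left out.

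**Figure D5:**
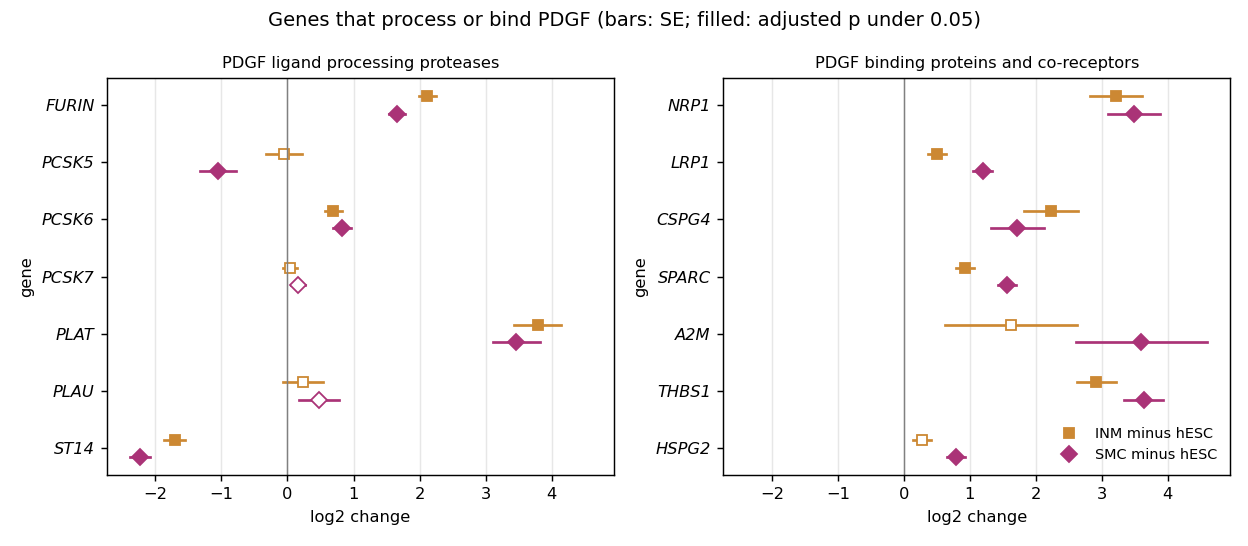
Log2 change (horizontal axis, with SE bars) of 7 genes of PDGF-processing proteases and 7 genes of PDGF-binding proteins and co-receptors (vertical axes), in INM minus hESC (squares) and SMC minus hESC (diamonds); filled symbols were called. PLAT and FURIN lie far to the right, ST14 to the left, and all 7 binding genes are filled and right of 0 in SMC.

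Inside the cell, 14 of 24 measured genes that relay the receptor signal (33 were listed) were called higher and 0 lower in INM than in hESC, with a median of 0.56. PIK3R1, the regulatory subunit of phosphoinositide 3-kinase, rose by 2.20 (SE 0.18, adjusted p = 0.000368), the kinase gene SRC by 1.97 (SE 0.11, adjusted p = 0.000114) and the Ras exchange factor gene SOS2 by 1.37 (SE 0.16, adjusted p = 0.00144). From the relay list, SMC against INM had 1 called higher, STAT3 at 0.92, and 7 lower, led by PIK3CB at -1.66, SRC at -1.44 and NCK2 at -0.97, with a median of -0.31. In SMC against hESC 11 were higher and 2 lower, PIK3CB at -2.06 and YES1 at -0.65, with a median of 0.30. The call of STAT3 over INM was lost without either SMC array. That of YES1 relative to hESC was lost without hESC replicate 2 or SMC replicate 2. Calls held with any 1 array left out for 6 of the 14 rises in INM over hESC, among them PIK3R1, SRC and SOS2. They held for 2 of the 7 falls in SMC against INM, PIK3CB and SRC, and for 4 of the 11 rises in SMC over hESC.

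Among genes that damp receptor signalling 8 of 15 were called higher and 2 lower, PTPN2 at -0.53 and SH3KBP1 at -0.81, in INM against hESC (median 0.40). SPRY2, an inhibitor of Ras signalling, rose by 2.35 (SE 0.17, adjusted p = 0.000239), SPRED2 by 1.98 (SE 0.15) and ERRFI1 by 1.63 (SE 0.12). Between SMC and INM, 1 was called higher in SMC, SPRY1 at 1.39, and 3 lower, CBLB at -0.81, DUSP4 at -0.56 and CBL at -0.55 (median 0.01). In SMC against hESC 7 were higher, led by SPRY2 at 2.21, and 1 lower, PTPN2 at -0.51 (median 0.38). In all 6 fits with 1 array left out, 6 of those 7 rises were called, but the falls of PTPN2 were not. Of the 8 rises in INM over hESC 4 held in all fits, and 4 was the lowest count, while 0 of the 2 falls held. In SMC against INM 0 held of the 1 rise and of the 3 falls, which were lost without SMC replicate 1, and the falls also without SMC replicate 2.

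Early genes that growth factors induce were called higher in 13 of 21 cases and lower in 0 in SMC against hESC (median 1.07), and 12 of the 13 calls held with any 1 array left out. HAS2, a hyaluronan synthase, read 11.33 and 11.34 in SMC against 6.84 and 6.67 in hESC (4.58, SE 0.55, adjusted p = 0.00114), and the chemokine gene CCL2 rose by 4.21 (SE 0.20, adjusted p = 3.9e-05). In INM against hESC 8 were higher and 0 lower (median 0.47), led by HAS2 at 3.93, DUSP1 at 1.98 and JUN at 1.92, and in SMC against INM 8 were higher and 0 lower (median 0.47), led by CCL2 at 3.10, PLAUR at 2.32 and EGR1 at 1.29. At an unadjusted p under 0.05, 1 early gene was lower in each of these steps, and 0 in SMC against hESC. Many ligands other than PDGF induce these genes. In INM, HAS2 read 9.70 and 11.66 and so was higher on replicate 2, whereas 15 of the 21 early genes were higher on replicate 1. With 1 array left out, the count in INM over hESC ran from 3 to 13, the highest without INM replicate 2, and 3 of its 8 calls held in all 6 fits. That of SMC over INM ran from 2 to 14, the highest without INM replicate 1, and 2 of its 8 calls held.

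Related receptor families were counted in the same way. Of the other class III receptors and their ligands, in INM against hESC 2 of 7 were called higher (CSF1R at 1.05 and CSF1 at 1.01) and 2 lower (IL34 at -0.75 and KIT at -0.45). Relative to INM, SMC had 2 higher (KIT at 0.97 and IL34 at 0.56) and 1 lower (CSF1R at -1.22). In SMC against hESC 2 were higher (CSF1 at 1.21 and KIT at 0.53) and 0 lower. The list medians were -0.26, 0.20 and -0.03, in the order INM against hESC, SMC against INM and SMC against hESC. Of the VEGF ligands and receptors, whose ligands share the cystine knot fold of PDGFs, 2 of 8 were higher and 0 lower in INM against hESC (NRP2 at 2.80 and PGF at 0.71). In SMC against INM 3 were higher (VEGFA at 1.58, FLT1 at 0.74 and VEGFB at 0.70) and 2 lower (PGF at -0.69 and NRP2 at -0.45). In SMC against hESC 5 were higher (NRP2 at 2.35, VEGFC at 1.43, VEGFA at 1.32, FLT1 at 1.0 and VEGFB at 0.83) and 0 lower. The medians were 0.19, 0.41 and 0.92 in the same order. The INM arrays disagreed for KDR, at 9.09 and 11.47 against 10.28 and 10.30 in hESC (-0.006, SE 0.67). This split had the same direction as that of PDGFRA. For KDR the lack of a call in INM therefore does not show a lack of change. With 1 array left out, VEGF rises ran from 1 to 4 in INM over hESC, from 1 to 5 in SMC over INM and from 4 to 5 in SMC over hESC, and the 2 falls in SMC against INM from 0 to 3. FLT1, VEGFB, PGF and NRP2 lost their SMC against INM calls without either SMC array. Among class III genes both calls of CSF1R were lost without any hESC or SMC array, as was that of KIT in INM, and IL34 in SMC over INM without either SMC array. The rise of KIT in SMC over hESC was lost without hESC replicate 1 or either SMC array. Wherever limma called 0 genes in a direction in the protease, binding, relay, class III and VEGF lists, 0 also passed an unadjusted p under 0.05.

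Markers of cells in which PDGF genes are well known moved unevenly beside these results. Of 8 pericyte markers, 2 were called higher in INM than in hESC (RGS5 at 1.82 and CSPG4) and 4 in SMC than in hESC (RGS5 at 1.86, CSPG4, ANPEP at 1.42 and ABCC9 at 0.94). The defining markers KCNJ8, at 6.34 and 6.38 in SMC against 6.12 and 6.07 in hESC, and HIGD1B, at 4.63 and 4.55 in SMC against 5.14 and 4.78 in hESC, were not called. ABCC9 was also the 1 marker higher in SMC than in INM, at 0.70. With 1 array left out, 0 of the 2 INM calls, 0 of the 1 call over INM and 2 of the 4 SMC calls over hESC held. RGS5 in INM was lost without hESC replicate 1, CSPG4 in INM without either hESC array, ANPEP and CSPG4 in SMC without any hESC or SMC array, and ABCC9 over INM without either SMC array. All 8 fibroblast and matrix markers were called higher in SMC than in hESC, led by LUM at 9.21, DCN at 6.85 and COL3A1 at 5.62. Their mean signal was 11.35 and 11.30 in SMC, against 6.65 and 6.53 in hESC. In INM against hESC 5 were higher (LUM at 7.83, POSTN at 3.61, COL3A1 at 3.44, COL1A1 at 2.32 and COL1A2 at 1.96) and 1 lower (THY1 at -1.67), and in SMC against INM 6 were higher, led by DCN at 6.11. The calls of THY1 in SMC over hESC and of COL1A2 in INM were lost when any hESC or SMC array was left out. That of COL1A1 over INM was lost without either SMC array. Smooth muscle markers were called higher in 4 of 8 (ACTA2 at 4.99, CNN1 at 1.48, CALD1 at 1.14 and SMTN at 1.03) and lower in 1 (ACTG2 at -1.33) in INM against hESC, and higher in 3 (ACTG2 at 3.91, ACTA2 at 1.65 and LMOD1 at 1.34) in SMC against INM. The fall of ACTG2 and the rise of SMTN in INM were lost without either hESC array, and ACTA2 over INM without either SMC array.

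Endothelial markers, which mark a usual source of PDGF-B, were called by limma in 0 of 8 genes in INM against hESC, and 0 passed an unadjusted p under 0.05. The INM arrays disagreed for TEK, at 7.97 and 10.52 against 8.84 and 8.95 in hESC (0.35, SE 0.71). For TEK the lack of a call therefore does not show a lack of change. Of the 8 markers, 6 read higher on INM replicate 1, whereas TEK and TIE1 read higher on replicate 2. In SMC against INM 2 were higher (PECAM1 at 1.24 and EMCN at 1.19). In SMC against hESC 3 were higher (PECAM1 at 1.43, EMCN at 1.19 and CDH5 at 0.95). EMCN read 5.46 and 5.55 in SMC, where the median of the unnamed probe sets was 5.34 and 5.31. In hESC it read 4.50 and 4.13, below that median. TEK, TIE1, ESAM, CLDN5 and VWF were not called in any comparison. The call of CDH5 was lost without any hESC or SMC array, and that of PECAM1 over INM without SMC replicate 1. The mean signal of the 8 endothelial markers was 6.78 and 6.74 in SMC, against 6.20 and 6.12 in hESC, while PDGFB was lower in SMC. Of 8 platelet and macrophage markers, PF4 at -0.91, PPBP at -0.58 and GP9 at -0.43 fell in INM relative to hESC. In SMC against hESC the falls were -0.54, -0.52 and -0.57 in the same order. PPBP lay under the median of the unnamed probe sets on every array. PF4 lay under it on hESC replicate 2 and on each INM or SMC array, whereas GP9 lay above it throughout. That median was itself lower on the INM arrays (5.11, 5.04) than on the hESC arrays (5.62, 5.65). The falls of PPBP and PF4 were therefore changes at low signal, and their source was not tested. With 1 array left out, 1 of the 3 falls in INM and 0 of the 3 in SMC held, those in SMC being lost without hESC replicate 1 or either SMC array. CD68, at 8.23 and 8.24 in SMC against 7.08 and 7.03 in hESC, rose by 1.18. The list's ITGA2B, PTPRC, CD14 and LYZ were not called in any comparison. In SMC, PTPRC read 3.87 and 3.89 and LYZ 3.90 and 3.98, below the median of the unnamed probe sets on those arrays. Of 7 trophoblast markers, limma called 0 in any comparison, and 1 was lower at an unadjusted p under 0.05 in each derivative relative to hESC. Without INM replicate 2, however, CGA at 2.12 and GCM1 at 0.72 were called higher and PSG1 at -0.50 lower in INM than in hESC, and without INM replicate 1 CGA was called lower at -0.50. Of 5 glial markers only MBP was called, at -0.88 in SMC against hESC. The part of any of these cell types in the PDGF values was not tested.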

How the data were processed

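Values were the log2 signals deposited by the authors for 33297 probe sets. RMA and limma are named, without versions, per the submitters' processing notes, and the values, which fit a log2 scale, ran from 1.36 to 14.1. For RMA settings and the array's genome build, the sources used here give nothing. RMA sets arrays to a common distribution before summarising probes, which can hide a global shift. Symbols came from the platform's annotation, which can be old, and were updated by Entrez identifier to RefSeq names: 19460 probe sets had 1 symbol, 1754 several and 12083 were unnamed here. The probe set with the highest mean stood for each of 18417 genes. Groups came from sample titles.

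Group means were fitted with limma 3.58.1 (lmFit, eBayes) in R 4.3.3 on all 6 arrays, with Benjamini-Hochberg adjustment over all genes; a call needs an adjusted p under 0.05. The fit was tested on simulated data in which all arrays had the same spread, taken from the hESC pair. The simulation therefore did not test the fit under the wider INM spread. With 2 arrays a group, the smallest two-sided exact permutation p is 0.333, so no single-gene permutation test could pass. The number of arrays limits precision. From each of 16 gene lists, the rule for names was up to 3 called genes of largest change per comparison and all called genes of a direction with 5 or fewer, which for the stem cell, mesoderm and some smooth muscle calls are given as counts only; other names were chosen after their values were seen. The members and lists were chosen with earlier results of these data known. Alternatives were a low-signal filter (limit 5.04), median centring, quantile normalization, the mean of a gene's probe sets, all probe sets, fits of the compared groups alone, a trended robust prior, array weights, the replicate number as a block, other thresholds, and each array left out. Promoter windows came from RefSeq, GRCh38.p14; PDGFB, PDGFC and PDGFRL are named only.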

Additional observations from a re-analysis of the deposited data

Results flagged for a closer look

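A probe set annotated to both EBF1 and PDGFRB was outside every comparison, since it names no single gene. It read 7.27 and 7.45 in SMC, against 5.72 and 5.62 in hESC, which was 1.69 higher (SE 0.138, limma adjusted p = 0.000649 over all probe sets). In INM it read 5.51 and 5.72, and the change relative to hESC was -0.05 (SE 0.138, adjusted p = 0.801). The probe set carrying PDGFRB alone had risen by 2.46 in INM, so the pair did not move together at day 4. Which gene the shared probe set reports was not tested.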

How the results depend on the processing

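The 7 PDGF genes in 3 comparisons gave 12 reversals of direction among the alternatives, none in PDGFRA, PDGFRB or PDGFRL. After median centring, PDGFA in SMC against INM turned to -0.038, and in INM against hESC PDGFB turned to 0.114 and PDGFD to 0.0953. After quantile normalization, PDGFB turned to 0.138 and PDGFD to 0.0502 in INM against hESC. With 1 array left out, PDGFA in SMC against INM ran from -0.0587 to 0.0917, PDGFB in INM against hESC from -0.236 to 0.0883, PDGFC in SMC against INM from -1.70 to 0.762, PDGFD in INM against hESC from -0.719 to 0.533 and PDGFD in SMC against INM from -1.07 to 0.187. PDGFB in INM against hESC also turned without hESC replicate 1 (0.0442), and PDGFD without hESC replicate 2 (0.103). The cause was not tested.

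Leaving out 1 array at a time gave 1 to 4 genes higher and 1 to 2 lower in INM against hESC, 1 to 4 higher and 0 to 3 lower in SMC against INM, 2 to 4 higher and 0 to 2 lower in SMC against hESC, and 3 to 6 by the F test. At an adjusted p under 0.01, 1 gene was higher in INM against hESC and 1 in SMC against INM, and 0 were lower in SMC against hESC. A change of at least 1 also left 0 lower there. Median centring and quantile normalization each gave 1 lower in SMC against INM and 0 lower in SMC against hESC. The fit of SMC and hESC alone gave 4 higher and 2 lower, as did array weights. Relative to the deposited scale, median centring moved the median of all genes by 0.19 in INM against hESC and 0.13 in SMC against hESC, and quantile normalization moved it by 0.15 in INM against hESC. Same-numbered arrays did not deviate together (correlations 0.0737, -0.119 and -0.067). With the replicate block the counts were 2 higher and 1 lower, 3 and 0, and 2 and 1, in the same order of comparisons, and 3 by the F test. With 2 arrays a group, the gap within INM enters the error of PDGFRA, PDGFC and PDGFD in every comparison fitted over 6 arrays.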
